A study of Mus musculus with 24 samples.

Results

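The 7 S100 genes described here are S100a1, S100a4, S100a6, S100a8, S100a9, S100a10 and S100a11, taken by gene symbol from tables of 55421 genes. They were measured by RNA-seq of polyadenylated RNA in hepatocytes isolated from 24 C57BL/6J mice, 1 library per animal. The ND+veh group (n = 8) was kept on normal diet with vehicle throughout. The HFD+veh group (n = 7) had normal diet with vehicle from 4 months of age and, from 18 months, a high-fat diet (60% of calories from fat) with vehicle for 9 weeks. The HFD+eRapa group (n = 9) had normal diet with encapsulated rapamycin at 42 ppm from 4 months, then high-fat diet with rapamycin for the same 9 weeks. Rapamycin, an inhibitor of the kinase complex mTORC1, was therefore present long before the diet changed, and no group had rapamycin on normal diet alone. The comparisons ask how these genes differ with the diet, and how they differ when rapamycin is given with it. Hepatocytes were freed by collagenase perfusion and enriched by low-speed spins and a density gradient, a method that reduces other liver cells without sorting by a marker.

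S100 proteins are small calcium-binding proteins that act as dimers. Inside cells they bind annexins, myosin and other targets, and some are released and bind receptors such as Tlr4 and the receptor for advanced glycation end products (Ager). S100a8 and S100a9 pair to form calprotectin, an abundant protein of neutrophils and monocytes, while S100a10 has lost calcium binding and pairs with annexin A2.

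All 7 genes lay on mouse chromosome 3 and were annotated as protein coding (GENCODE annotation of GRCm38). S100a1, S100a4, S100a6, S100a8 and S100a9 lay within chr3:90511034-90695721, a span of 184.688 kb that holds 12 S100 genes. S100a8 (chr3:90668978-90670035, plus strand) and S100a9 (chr3:90692632-90695721, minus strand) pointed towards each other. S100a11 (chr3:93520488-93526287, plus strand) and S100a10 (chr3:93555080-93564643, plus strand) formed a separate pair 2.82 Mb beyond S100a9. S100a4 (chr3:90603771-90606045, plus strand) overlaps the predicted gene Gm42674 on the same strand, so reads shared by both genes could be lost or split in counting.

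Promoter sequences were available from RefSeq (GRCm38.p6) for 6 of the 7 genes, all but S100a10. Each was searched from 250 bases before the start site to 50 after it, on both strands, for the letters TGANTCA (AP-1), TTGCNNAA (C/EBP), GAGGAA (PU.1), GAAA repeated after any 2 bases (ISRE), and GGG followed by any 2 bases and TTTCC (NF-kB). These motifs occurred in 7.81%, 10.8%, 28.3%, 3.44% and 1.63% of 32851 promoters of the same length. The 250 bases before the start sites of S100a8 (chr3:90668821-90669070, plus strand), S100a9 (chr3:90695722-90695971, minus strand) and S100a11 (chr3:93520246-93520495, plus strand) are shown, because S100a8 and S100a9 form the calprotectin pair and S100a11 held the most matches. Capitals mark the matches.
S100a8: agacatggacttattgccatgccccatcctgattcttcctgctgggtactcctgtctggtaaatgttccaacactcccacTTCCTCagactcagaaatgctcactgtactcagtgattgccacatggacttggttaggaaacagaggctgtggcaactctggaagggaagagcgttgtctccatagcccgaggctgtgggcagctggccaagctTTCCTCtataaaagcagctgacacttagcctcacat
S100a9: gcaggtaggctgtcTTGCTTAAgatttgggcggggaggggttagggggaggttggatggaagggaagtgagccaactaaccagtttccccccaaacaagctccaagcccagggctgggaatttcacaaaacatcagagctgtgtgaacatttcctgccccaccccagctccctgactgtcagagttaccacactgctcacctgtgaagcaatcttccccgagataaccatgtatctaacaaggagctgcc
S100a11: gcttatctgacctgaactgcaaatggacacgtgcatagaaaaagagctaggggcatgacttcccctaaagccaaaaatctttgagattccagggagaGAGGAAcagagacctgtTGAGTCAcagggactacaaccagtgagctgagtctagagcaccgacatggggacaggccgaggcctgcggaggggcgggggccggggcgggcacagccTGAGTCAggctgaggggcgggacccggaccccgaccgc
S100a8 held PU.1 letters at positions -170 and -36 from the RefSeq start site, both on the reverse strand. The GENCODE gene of S100a8 begins further upstream, at chr3:90668978, so the match at -36 lies inside it. S100a9 held C/EBP letters at -236. S100a11 held the palindromic AP-1 letters at -136 and -38 and PU.1 letters at -153. S100a4 held PU.1 letters at 20 bases after its start, and S100a1 and S100a6 held none of the 5 motifs. No ISRE or NF-kB letters were found in these 6 windows, and a match or its absence is a description of letters only.

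Library totals ran from 17739252 to 25945134 counts, so 3 counts correspond to 0.0944 to 0.185 counts per 1000000 counts on the TMM-scaled level used throughout (CPM). The hepatocyte markers were at a summed level of 65907 to 170723 CPM in ND+veh, 103054 to 174851 CPM in HFD+veh and 62390 to 158901 CPM in HFD+eRapa. Markers of other cells were also present. The 20 monocyte and macrophage markers summed to 73.1 to 1816 CPM in ND+veh, 363 to 8476 CPM in HFD+veh and 66.5 to 1549 CPM in HFD+eRapa. Neutrophil markers (17 genes) summed to 6.99 to 35.7, 12.9 to 169 and 9.68 to 25.7 CPM in the same order. Cebpe alone had a median of 6.37 CPM in ND+veh and 8.52 CPM in HFD+eRapa, where the median sums of this list were 10.8 and 13.6 CPM. HFD+veh replicate 6 had the highest sum of both lists. In contrast, the defining neutrophil marker Ly6g had no counts in 22 of the 24 libraries.

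By median level, the 7 genes fell into abundant and scarce members. Per length, as fragments per kilobase and per 1000000 mapped fragments (FPKM), S100a10 and S100a1 had the highest medians in every group. Median FPKM of S100a10 was 203 in ND+veh, 367 in HFD+veh and 319 in HFD+eRapa. Median FPKM of S100a1 was 129, 168 and 166. S100a10 exceeded S100a1 in 7 of 8, 7 of 7 and 9 of 9 libraries, although their ranges overlapped in ND+veh and HFD+veh. S100a1 exceeded S100a11 in 6 of 7 HFD+veh libraries, as HFD+veh replicate 4 had 124 FPKM of S100a1 and 133 of S100a11. By median, S100a11 was the third in every group, with median FPKM of 10.6, 36.0 and 11.7. Below it, the median FPKM of S100a9, S100a8, S100a6 and S100a4 ran from 0.113 to 0.850 in ND+veh and from 5.01 to 19.5 in HFD+veh, and the ranges of these 4 genes overlapped within each group.

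**Figure D1:**
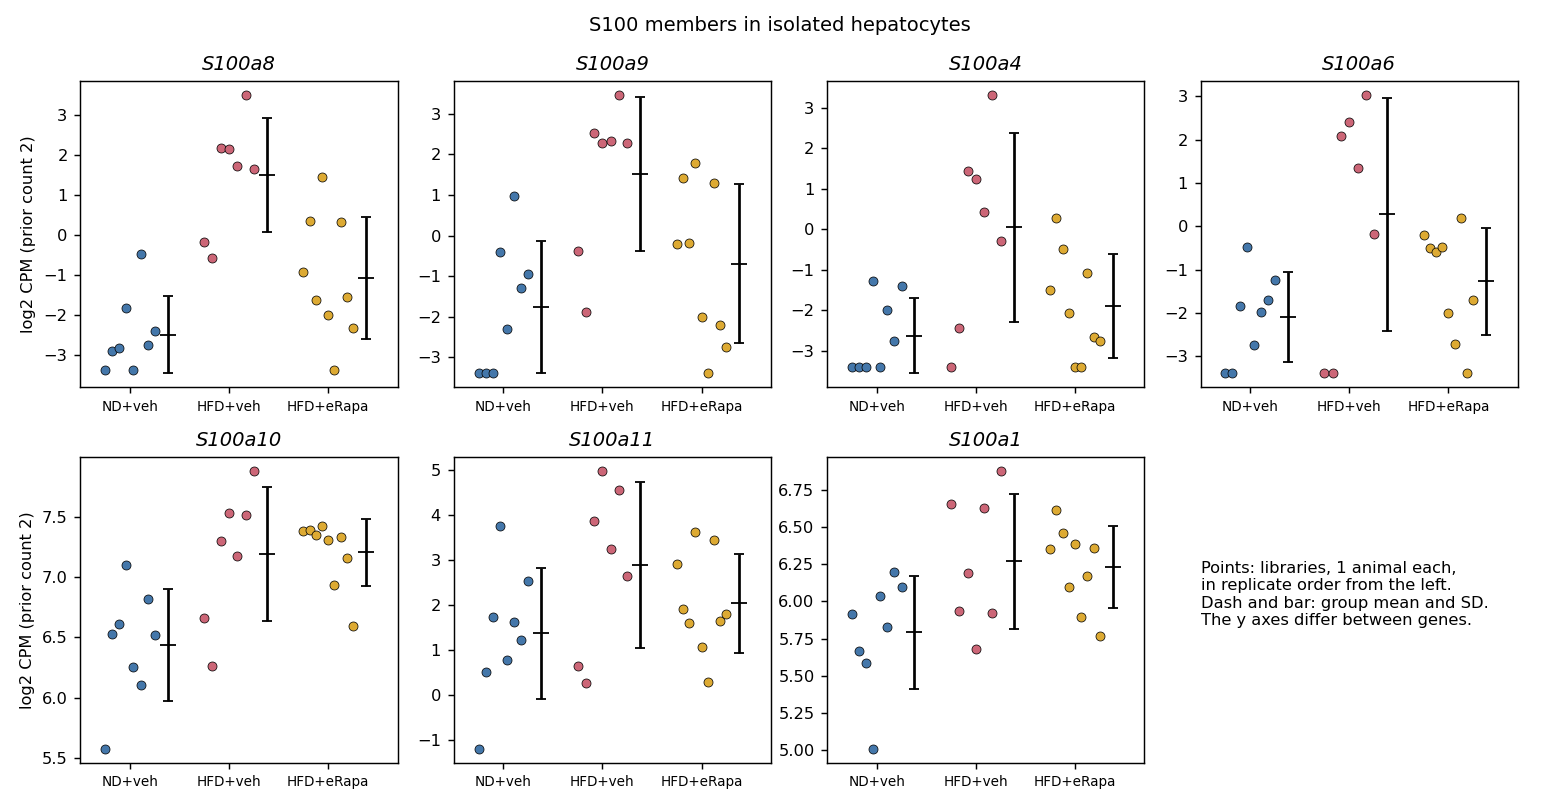
Level of each S100 member (log2 CPM, prior count 2) in 24 hepatocyte libraries from 8 ND+veh, 7 HFD+veh and 9 HFD+eRapa mice, with 1 point per library and the group mean and SD as a dash and bar. In S100a8, S100a9, S100a4, S100a6 and S100a11, HFD+veh replicates 1 and 2 sit below the other 5 HFD+veh libraries.

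Between HFD+veh and ND+veh, 6 of the 7 members were higher in HFD+veh (edgeR's quasi-likelihood test, Benjamini-Hochberg adjusted p under 0.05), against 16% of the 13847 genes tested. None was lower, against 9.86% of all genes, and 25.9% of all genes were called in either direction. No member was lower at an unadjusted p under 0.05 or with DESeq2 either. All 7 passed the filter on low counts, which asked for 0.475 unscaled CPM in at least 7 libraries, but S100a4 met that minimum in 5 HFD+veh, 2 HFD+eRapa and 0 ND+veh libraries, and S100a6 and S100a8 each met it in 1 ND+veh library. A gene that passes mostly through the group where it is high is likely to be called, so the count of 6 is a description. With only these groups in the fit, S100a4 and S100a6 were below the filter, and S100a8, S100a9 and S100a10 were called of 5 tested. Exact permutation tests with the same adjustment called S100a8 and S100a9. The scarce members showed the largest differences, 28.7-fold for S100a8, 21.4-fold for S100a4, 14.1-fold for S100a6 and 10.6-fold for S100a9. The abundant members S100a10 and S100a1 differed by 1.71-fold and 1.42-fold. The median log2 fold change of the 7 members was 3.41 and that of all genes tested was 0.047. The groups overlapped for all 7 members, and 2.44% of all genes tested had groups that did not overlap. In bulk RNA, more cells of a type and more RNA per cell cannot be told apart. Without HFD+veh replicate 6, 4 members were higher, as S100a9 (adjusted p = 0.0515, edgeR) and S100a1 (adjusted p = 0.0583) missed the threshold.

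S100a8, the calprotectin subunit and Tlr4 ligand, was at 0 to 0.628 CPM in ND+veh (median 0.0496), with no counts in 2 of 8 libraries. In HFD+veh it was at 0.572 to 11.2 CPM (median 3.19). Every HFD+veh library was above the ND+veh median and 6 of 7 were above the highest ND+veh library, replicate 6. Its log2 fold change came to 4.84 with an SE of 0.89 (edgeR adjusted p = 0.000809). Without ND+veh replicate 6 it was 5.77 (adjusted p = 0.000441, edgeR). The range of HFD+veh was wide, from replicate 2 at the bottom to replicate 6 at the top.

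S100a9, its calprotectin partner, was at 0 to 1.88 CPM in ND+veh (median 0.213) and at 0.176 to 10.95 CPM in HFD+veh (median 4.78). ND+veh replicate 6 was again the highest of its group, and HFD+veh replicates 1 and 2 were again the lowest of theirs. On the log2 scale the difference was 3.41 with an SE of 1.00 (edgeR adjusted p = 0.0180), with 5 of 7 HFD+veh libraries above all ND+veh libraries, and without ND+veh replicate 6 it was 4.31 (adjusted p = 0.00906). In log2 CPM over the 24 libraries, Pearson's r between S100a8 and S100a9 was 0.93, and 0.93 after group means were removed. The share of S100a8 in the summed counts of both genes was 38.9% to 53.6% in the 6 HFD+veh libraries with at least 20 summed counts, 31.3% to 44% in 4 such HFD+eRapa libraries, and 22.2% and 25% in ND+veh replicates 4 and 6. The Wilson 95% intervals of the ND+veh shares, which cover counting error only, were 10.6% to 40.8% for replicate 4 and 14.9% to 38.8% for replicate 6. The former reached into the HFD+veh range and the latter ended just below it, while the interval of the lowest of those HFD+veh shares, 31.5% to 46.9% in replicate 7, overlapped both.

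S100a4, which binds non-muscle myosin and is found in fibroblasts and macrophages, was at 0 to 0.315 CPM in ND+veh (median 0.0264), with no counts in 4 of 8 libraries. In HFD+veh it was at 0 to 9.90 CPM (median 1.25). HFD+veh replicate 6 alone held 58.6% of that group's summed CPM, while replicate 1 had no counts. HFD+veh exceeded ND+veh by 4.42 on the log2 scale, with an SE of 1.04 (edgeR adjusted p = 0.00531), and without HFD+veh replicate 6 it was 3.32 (adjusted p = 0.0247).

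S100a6, also called calcyclin and a partner of Cacybp and annexins, was at 0 to 0.629 CPM in ND+veh (median 0.171) and at 0 to 8.09 CPM in HFD+veh (median 2.45). HFD+veh replicates 1 and 2 had no counts, and the other 5 libraries were above all ND+veh libraries. The difference was 3.82 on the log2 scale, with an SE of 0.95 (edgeR adjusted p = 0.00715).

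S100a10, also called p11, holds annexin A2 at the membrane and binds plasminogen. It was at 47.6 to 137 CPM in ND+veh (median 91.8) and at 76.5 to 236 CPM in HFD+veh (median 157). ND+veh replicate 4 was the highest of its group, and 5 of 7 HFD+veh libraries were above it. This was a log2 difference of 0.77 with an SE of 0.21 (edgeR adjusted p = 0.0116).

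S100a11, a partner of annexin A1, was at 0.340 to 13.3 CPM in ND+veh (median 2.60) and at 1.10 to 31.4 CPM in HFD+veh (median 9.39). Its log2 difference of 1.69 (SE 0.69) did not pass the test (edgeR adjusted p = 0.0709). With DESeq2 the adjusted p was 0.0340, and with exact permutation tests it was 0.224. ND+veh replicate 4 stood above 4 of the 7 HFD+veh libraries. Without that library the adjusted p was 0.0202, without HFD+veh replicate 1 it was 0.0381 and without HFD+veh replicate 2 it was 0.0337.

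S100a1, known as a regulator of the calcium pump Atp2a2 in muscle, was at 32.1 to 73.1 CPM in ND+veh (median 58.6) and at 51.3 to 118 CPM in HFD+veh (median 72.9). Its order of libraries differed from that of the other members, with ND+veh replicate 4 the lowest of all 24 libraries and HFD+veh replicates 7, 1 and 5 the highest. The log2 difference was 0.50 with an SE of 0.18 (edgeR adjusted p = 0.0429). Leaving out any of 10 of the 15 libraries, ND+veh replicates 1, 2, 3, 4 or 6 or HFD+veh replicates 1, 3, 5, 6 or 7, raised the adjusted p to between 0.0583 and 0.108.

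**Figure D2:**
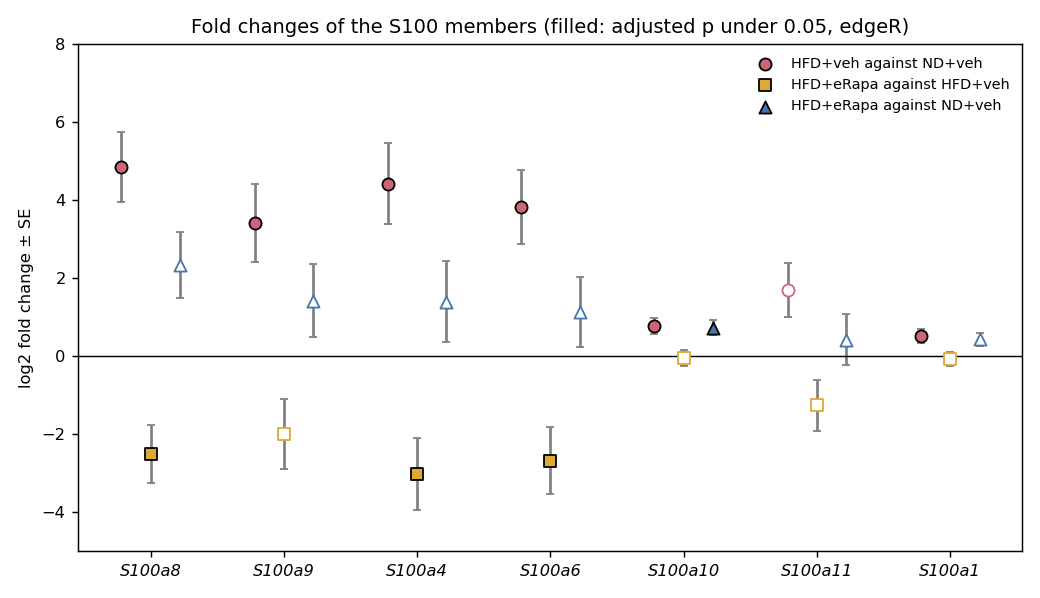
Log2 fold change with its SE for each S100 member in the 3 comparisons, from 1 edgeR fit over 24 libraries, with filled symbols at adjusted p under 0.05. Of the filled points, 6 are circles for HFD+veh against ND+veh, from 0.50 (S100a1) to 4.84 (S100a8), and 3 are squares below 0 for HFD+eRapa against HFD+veh.

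Between HFD+eRapa and HFD+veh, 3 of the 7 members, S100a4, S100a6 and S100a8, were lower in HFD+eRapa, against 21.1% of all genes tested. None was higher, also at an unadjusted p under 0.05 or with DESeq2, against 10.9% of all genes, and 32% of all genes were called in either direction. The minimum of the low-count filter was met by S100a4 in 5 HFD+veh and 2 HFD+eRapa libraries, S100a6 in 5 and 5, and S100a8 in 7 and 3. S100a4 and S100a8 thus passed mostly through HFD+veh, where they were high, so the count of 3 is also a description. The median over the 7 members was -2.00 on the log2 scale, and over all genes tested it was -0.0375. For each of S100a4, S100a6, S100a8 and S100a9, all 9 HFD+eRapa libraries were below the HFD+veh median, but the groups overlapped for all 7 members (2.59% of all genes tested did not overlap). Exact permutation tests, and limma on log2(FPKM + 0.1), each called S100a8 alone. Without HFD+veh replicate 6, none of the 7 members passed edgeR's test after adjustment, and 3 were lower at an unadjusted p under 0.05. The log2 fold changes were then -1.92 for S100a4 (adjusted p = 0.110, edgeR), -2.14 for S100a6 (adjusted p = 0.0730) and -1.92 for S100a8 (adjusted p = 0.0604).

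S100a8 was at 0 to 2.64 CPM in HFD+eRapa (median 0.247), and 6 of 9 libraries were below the lowest HFD+veh library. The highest was HFD+eRapa replicate 4. Against HFD+veh the log2 difference was -2.51 with an SE of 0.74 (edgeR adjusted p = 0.0126), and without HFD+eRapa replicate 4 it was -3.15 (adjusted p = 0.00347).

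S100a4 was at 0 to 1.12 CPM (median 0.144) in HFD+eRapa, a log2 difference from HFD+veh of -3.03 with an SE of 0.91 (edgeR adjusted p = 0.0144). S100a6 was at 0 to 1.05 CPM (median 0.565), a log2 difference of -2.69 with an SE of 0.85 (edgeR adjusted p = 0.0191). For both genes the 2 low HFD+veh libraries, replicates 1 and 2, lay within the HFD+eRapa range. S100a9 (0 to 3.36 CPM, median 0.771) and S100a11 (1.13 to 12.2 CPM, median 3.37) did not pass the test, with log2 fold changes of -2.00 (edgeR adjusted p = 0.0930) and -1.27 (edgeR adjusted p = 0.145).

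Neither abundant member passed the test. S100a10 was at 96.3 to 171 CPM in HFD+eRapa (median 161) and its log2 difference from HFD+veh was -0.04, with an interval of 2 SE from -0.45 to 0.36 (edgeR adjusted p = 0.888). S100a1 was at 54.3 to 97.8 CPM (median 81.5), with a log2 fold change of -0.08 and an interval of 2 SE from -0.43 to 0.27 (edgeR adjusted p = 0.772). Both intervals exclude differences as large as the fitted values of S100a4, S100a6 and S100a8. Whether the members differ from each other in their change was not tested.

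Between HFD+eRapa and ND+veh, 1 of the 7 members, S100a10, was higher in HFD+eRapa, against 6.93% of all genes tested. None was lower, also at an unadjusted p under 0.05 or with DESeq2, against 6.56% of all genes, and 13.5% of all genes were called in either direction. All 9 HFD+eRapa libraries were above the ND+veh median and 7 were above the highest ND+veh library, so the groups overlapped, as they did for the other 6 members (3.37% of all genes tested did not overlap). The log2 difference of S100a10 was 0.73 with an SE of 0.20 (edgeR adjusted p = 0.0144). S100a8 had the largest value, a log2 difference of 2.33 with an SE of 0.84, and did not pass the test (edgeR adjusted p = 0.0695). Its adjusted p was 0.0193 without ND+veh replicate 6 and 0.0442 without HFD+eRapa replicate 6. The median log2 fold change was 1.13 for the members and -0.0336 for all genes tested. This comparison shares its libraries with the previous ones.

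Across libraries, the scarce members varied beside markers of other cells. Of all genes tested, 16% were higher and 9.86% were lower in HFD+veh against ND+veh. In HFD+eRapa against HFD+veh, 10.9% were higher and 21.1% were lower. Without HFD+veh replicate 6, 988 of 13910 genes tested were higher in HFD+veh, and 2037 were lower in HFD+eRapa. No list was tested as a set. Of the monocyte and macrophage markers, 12 of 20 were above ND+veh in the HFD+veh group, such as Ccr2 (log2 fold change 4.96) and Gpnmb (4.52), and 18 of 20 were below HFD+veh in the HFD+eRapa group. Of 9 neutrophil markers tested, Ltf (3.45), Fpr2 (3.12), Ngp (2.95) and Fpr1 (2.72) were higher in HFD+veh, and Fpr2 (-3.78), Fpr1 (-3.51) and Csf3r (-2.65) were lower in HFD+eRapa. In the same comparisons, endothelial markers (12 tested) gave 3 higher and 12 lower, and stellate cell and fibroblast markers (11 tested) 4 higher and 11 lower. Without HFD+veh replicate 6, 5 monocyte and macrophage markers and 1 neutrophil marker were higher in HFD+veh, and 12 and 3 were lower in HFD+eRapa, while endothelial markers gave 1 and 6 and stellate cell and fibroblast markers 1 and 11. Hepatocyte markers (11 tested) gave 2 lower, Apoa1 (-0.68) and Cyp2e1 (-1.93), in HFD+veh and the same 2 genes higher in HFD+eRapa, Apoa1 (0.71) and Cyp2e1 (2.04). All 3 bile duct (cholangiocyte) markers tested were higher in HFD+veh, also without HFD+veh replicate 6, and 1 was lower in HFD+eRapa. The 8 markers of this list summed to 4.95 to 20.8 CPM in ND+veh, 13.2 to 363 CPM in HFD+veh and 11.9 to 59.7 CPM in HFD+eRapa. Of 7 erythroid and platelet markers tested, 4 globin genes were higher in HFD+veh and 3 platelet genes were lower in HFD+eRapa, and without HFD+veh replicate 6 the list gave 3 higher and 2 lower. Their sums were 1.53 to 25.5, 2.81 to 667.0 (replicate 6) and 2.14 to 210.1 CPM in the same order. Lymphocyte markers (16 genes) summed to 0.744 to 11.98 CPM in ND+veh, 0.730 to 84.6 CPM in HFD+veh and 1.76 to 4.71 CPM in HFD+eRapa.

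**Figure D3:**
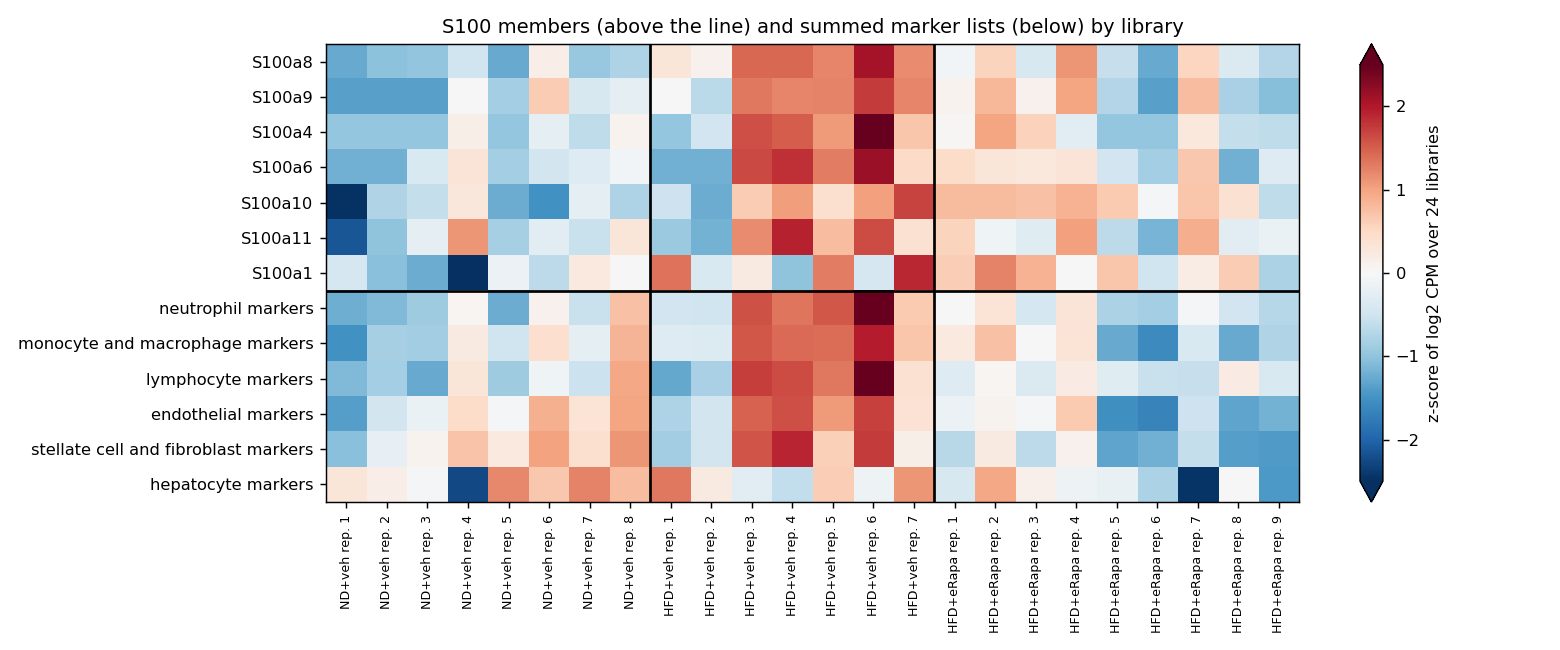
Level of the 7 S100 members (above the line) and of the summed marker lists of 6 cell types (below), as z-scores of log2 CPM over the 24 libraries, 1 column per library. HFD+veh replicates 3 to 6 are high in the scarce members and in the markers of immune and endothelial cells, HFD+veh replicates 1 and 2 are not, and S100a1 follows another order. In the summed stellate cell and fibroblast markers, HFD+veh replicate 5 (163 CPM) is below ND+veh replicates 4, 6 and 8 (184, 244 and 267 CPM).

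A score was made of 31 immune markers, 20 of monocytes and macrophages, 9 of neutrophils and 2 of lymphocytes. When it was added to the fit, S100a8 was the only member still called between HFD+veh and ND+veh. Its log2 fold change was 2.64 (adjusted p = 0.00229, edgeR). S100a4 was then at 0.42 (adjusted p = 0.819) and S100a6 at 0.13 (adjusted p = 0.963). With a score of 26 endothelial, stellate cell and bile duct markers instead, S100a8 (3.44, adjusted p = 0.000107) and S100a9 (1.94, adjusted p = 0.0352) were called. Between HFD+eRapa and HFD+veh, no member was called as lower with either score, and S100a11 was higher at 1.67 (adjusted p = 0.0190) with the score of other cells. Between HFD+eRapa and ND+veh, the same score gave 6 members called as higher, S100a4, S100a6, S100a8, S100a9, S100a10 and S100a11. The scores came from these same libraries and differed between the groups, and the part of other cells in the differences was not tested.

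**Figure D4:**
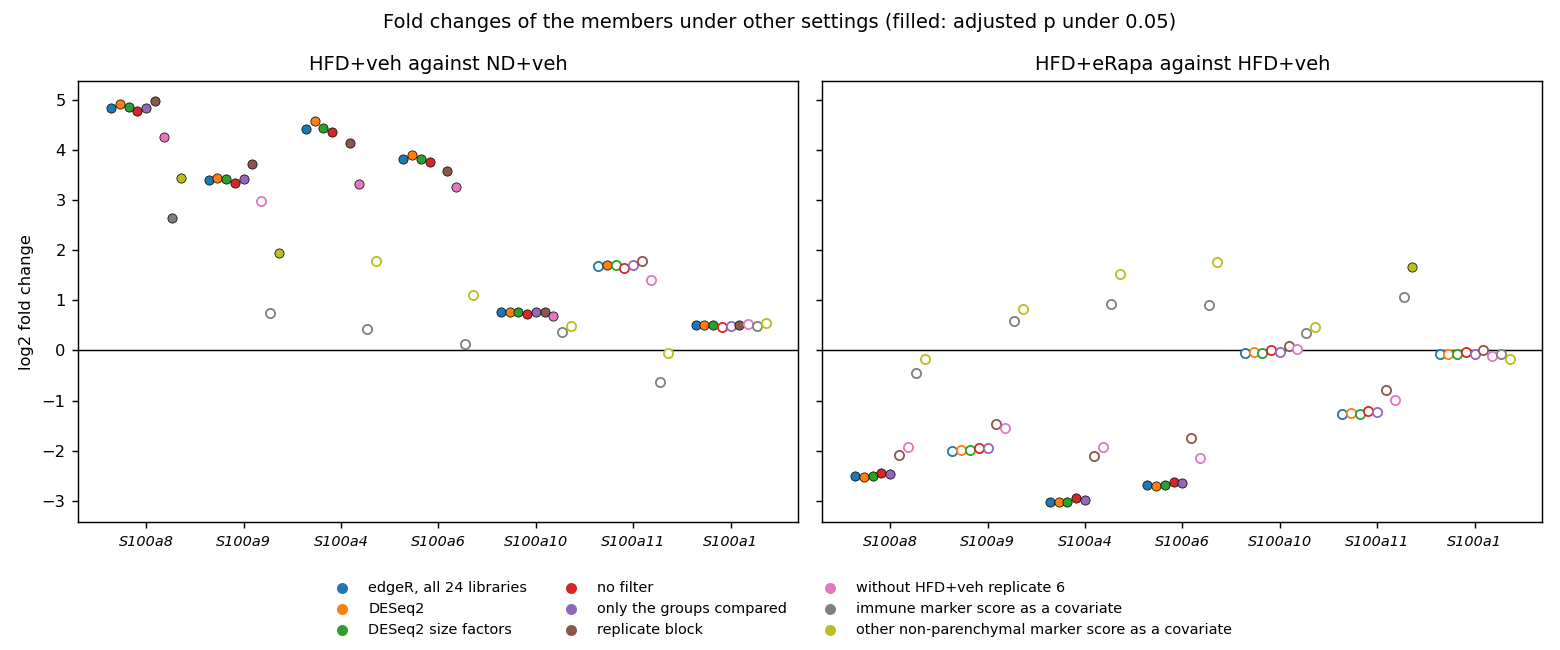
Log2 fold change of each member in 2 comparisons under 9 settings of the analysis, with filled points at adjusted p under 0.05. Members that fell below a filter have no point. Without HFD+veh replicate 6 no point is filled in the right panel, and with either marker score S100a4, S100a6, S100a9 and S100a11 lie above 0 there.

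Genes whose levels followed each member closely were found by Pearson's r of log2 CPM over the 24 libraries. For S100a8 they were Ltf (r = 0.94), Chil3 (0.93) and Il1rn (0.92), and for S100a9 they were Chil3 (0.94), Rgs2 (0.93) and Serpina3g (0.92). For S100a4 they were Cytip (0.95), the interferon-induced Ifitm6 (0.95) and the monocyte chemokine receptor Ccr2 (0.95). For S100a6, Cyp4f18 (0.93) was among them. S100a11 was followed by Casp12 (0.94), the phospholipid-binding annexin Anxa5 (0.94) and Uap1l1 (0.93). S100a10 was followed less closely, by Micu2 (0.87), Esd (0.86) and Akr1a1 (0.86). S100a1 was followed by Sdhb (0.95) and Ndufs8 (0.91), subunits of the mitochondrial respiratory chain. These values describe 24 libraries that differ in group and in markers of other cells.

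The proteins that bind S100 proteins were examined as gene lists, again with no test of a list as a set. The shares over all genes tested were 16% higher and 9.86% lower in HFD+veh against ND+veh. In HFD+eRapa against HFD+veh they were 10.9% higher and 21.1% lower. Of 7 receptors and adaptors tested, 5 were above ND+veh in the HFD+veh group, led by Tlr4 (log2 fold change 3.10), its co-receptor Cd14 (2.08) and the lipid scavenger Cd36 (1.97), and 5 were below HFD+veh in the HFD+eRapa group, led by Tlr4 (-3.30) and Cd14 (-2.56). Without HFD+veh replicate 6 these counts were 1 and 2. Ager did not pass the filter on low counts, with no counts in 9 libraries. Of 13 binding partners and annexins tested, 4 were higher in HFD+veh, namely Anxa1 (3.19), Anxa3 (2.67), Ahnak (1.29) and Anxa5 (1.15), and Atp2a2, the pump that S100a1 regulates in muscle, was lower (-0.55). In HFD+eRapa against HFD+veh, 4 were lower, led by Anxa1 (-3.29), and Atp2a2 was higher (0.37). Anxa2, which S100a10 binds, did not pass the test in either, at 1.44 (adjusted p = 0.0925, edgeR) and -0.63 (adjusted p = 0.451). Of 6 plasminogen system genes tested, 4 were higher in HFD+veh, among them Plau at 2.75, its receptor Plaur at 2.34 and the plasminogen receptor Plgrkt at 1.27. Plasminogen itself, Plg, was at -0.22 (adjusted p = 0.399, edgeR). In HFD+eRapa against HFD+veh, Plau (-2.77), Plaur (-2.54) and Plgrkt (-1.61) were lower. Without HFD+veh replicate 6, 1 binding partner or annexin and 2 plasminogen genes were higher in HFD+veh, and 3 and 3 were lower in HFD+eRapa.

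Of the 18 S100 genes in the tables, 11 were not among the 7 described. S100a13 and S100a16 passed the filter, at median levels over all libraries of 11.6 and 18.9 CPM, and neither passed the test in any of the 3 comparisons. Of the other 9, 5 had no counts in any library and 4 had too few to test.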

How the data were processed

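The authors aligned reads with 2-pass STAR to mm10 with GENCODE vM23, filtered them with SAMtools 1.1.0 and counted reads per gene with HTSeq 0.11.2. The deposited counts are raw and unpooled, and the strand setting is not given in the sources used here. The deposited FPKM values were made by the authors with Cufflinks and were used only to set levels side by side and in 2 alternatives. Groups and replicate numbers came from the labels, which give every library the same batch. No pair of libraries of a group agreed within sampling noise (chi-square per degree of freedom at least 11.3).

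Counts were tested with edgeR 4.0.16 in R 4.3.3 (filterByExpr, TMM, robust quasi-likelihood fit) in 1 fit over all 24 libraries, 3 groups and no covariates. Benjamini-Hochberg adjustment ran over the 13847 genes tested. A gene is termed called, higher or lower at an adjusted p under 0.05. CPM are TMM-scaled, and log2 CPM used a prior count of 2. SE is the absolute log2 fold change over the square root of F. Gene positions came from GENCODE M21 (55154 of 55421 identifiers matched) and promoters from RefSeq.

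Alternatives were DESeq2 1.42.0, exact permutation tests of log2 CPM, DESeq2 size factors, no filter, at least 10 counts in every library, limma 3.58.1 on log2(FPKM + 0.1) and log2(FPKM + 1) of genes with a mean FPKM of at least 0.5, only the groups compared, a replicate block, 2 marker scores as covariates, and each library left out. The fit without both ND+veh replicate 4 and HFD+veh replicate 6 was chosen after seeing the data. The scripts were tested on simulated data.

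The members and gene lists were chosen with earlier results of these data known. The 7 members were always named. Other S100 genes were named if they passed the filter. Up to 4 called genes per list and direction, ordered by the size of the change, and the 3 genes most correlated with each member (no S100 gene, no unnamed predicted gene) were eligible, and some genes that met this rule are not reported here. P-values set a difference between groups against the spread between these libraries.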

Additional observations from a re-analysis of the deposited data

Results flagged for a closer look

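S100g, a calcium-binding S100 gene on the X chromosome, did not pass the filter and was in no comparison, but its highest counts were above the highest of the control group. Its counts ran from 0 to 27 in HFD+eRapa (median 3), from 0 to 26 in HFD+veh (median 8) and from 0 to 11 in ND+veh (median 0.5), so the groups overlapped. The gene overlaps Ctps2 on the opposite strand, and without a stated strand setting reads of both genes cannot be told apart. In 21 sets of values (7 members in 3 groups, log2 CPM), Dixon's criterion found no library standing apart, where chance gives about 1.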

How the results depend on the processing

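Between HFD+veh and ND+veh, the 6 members called became 2 with exact permutation tests, 2 with at least 10 counts in every library, where only S100a1 and S100a10 had enough counts to be tested, and 3 of 5 tested (S100a4 and S100a6 were below the filter) when only the groups compared entered the fit. They became 1 with the immune marker score and 2 with the score of other non-parenchymal cells, under which the log2 fold change of S100a11 was -0.633 and -0.0462. DESeq2 called all 7 members, S100a11 among them. Leaving out 1 library gave 4 to 7 members. Between HFD+eRapa and HFD+veh, the 3 members called became 1 with exact permutation tests or limma on log2(FPKM + 0.1), and 0 with at least 10 counts in every library. They became 0 with the immune marker score, where S100a4, S100a6, S100a9, S100a10 and S100a11 were at 0.93, 0.91, 0.59, 0.35 and 1.07, and 1, S100a11 as higher, with the other score, where they were at 1.53, 1.77, 0.82, 0.46 and 1.67. Leaving out 1 library gave 0 to 3 members, with 0 without HFD+veh replicate 6 alone and 0 without both ND+veh replicate 4 and HFD+veh replicate 6. S100a10, near 0 in this comparison, was at 0.0186 with exact permutation tests, 0.0103 with no filter and 0.0464 without both libraries. When 1 library was left out it ran from -0.159 to 0.0898, above 0 without HFD+veh replicate 4, 6 or 7 or HFD+eRapa replicate 9, and S100a1 ran from -0.145 to 0.0408, above 0 without HFD+veh replicate 7. Between HFD+eRapa and ND+veh, the 1 member called became 2 with DESeq2, 0 with limma on FPKM at either pseudocount, 2 with the immune marker score and 6 with the other score, and 1 to 2 when 1 library was left out. S100a4 fell below the filter without HFD+eRapa replicate 2 or 3, and with only HFD+eRapa and ND+veh in the fit 3 members were tested. Other than where stated, the cause was not tested.

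Replicate numbers are shared by the groups, but not every pair of same-numbered libraries deviated together, so the numbers were not taken to pair the samples. Pearson's r over genes was above 0.1 in 5 of 7 pairs of ND+veh and HFD+veh, 2 of 7 of HFD+veh and HFD+eRapa and 2 of 8 of ND+veh and HFD+eRapa. Of the libraries, 5 of 14, 1 of 14 and 1 of 16 correlated best with their own number, a hint of pairing for ND+veh and HFD+veh only. With a replicate block the members called were 6, 0 and 3, with S100a1 at 0.0055 and S100a10 at 0.0879 between HFD+eRapa and HFD+veh. DESeq2 size factors changed no count of members called. At these depths, S100a4, S100a6, S100a8 and S100a9 rest on few counts in many libraries, with no counts in 7, 5, 3 and 4 of 24.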

Other observations

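Among the other cell markers, Spp1, a secreted phosphoprotein of bile duct cells and macrophages, had a median of 2.78 CPM in ND+veh, 95.2 CPM in HFD+veh and 13.2 CPM in HFD+eRapa. Its log2 fold change was 5.31 between HFD+veh and ND+veh (edgeR adjusted p = 7.90e-05), -2.67 between HFD+eRapa and HFD+veh (adjusted p = 0.00391) and 2.64 between HFD+eRapa and ND+veh (adjusted p = 0.00903). The haemoglobin transcript Hbb-bs was at a median of 0.842, 14.0 and 5.74 CPM in the same groups, with log2 fold changes of 5.96 (edgeR adjusted p = 0.00331), -1.97 (adjusted p = 0.149) and 3.99 (adjusted p = 0.0262). Single libraries weighed on these values, as the highest was at 402.5 CPM in HFD+veh (mean 81.5) and 140.1 CPM in HFD+eRapa (mean 20.8).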
